A study of Homo sapiens with 36 samples.

Results

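The anti-EGFR aptamer MinE07 was compared with vehicle in A549 cells, a human non-small cell lung cancer line whose EGFR the labels give as wild type. Of the 36 libraries of the study, the 6 A549 libraries labelled MinE07 or vehicle were used, 3 in each group, and the 13379 of 66366 named genes with a mean FPKM (fragment counts scaled for transcript length and library depth) of at least 1 over those 6 were tested. The MinE07 group received 3 µM of folded aptamer and the vehicle group received the DPBS and magnesium buffer alone. Both stayed in DMEM with reduced serum for 24 h before total RNA was taken. The 3 replicates of a group were separate experiments, per the study's design text. A group of 3 A549 libraries treated with C36, the control aptamer in an extended form, gave part of the estimate of the spread. H3255, H1975 and H820 carry EGFR mutations, which the labels give as L858R, L858R/T790M and Ex19del/T790M in that order. These lines received the same treatments and are used here only to test whether the A549 change differed from theirs. All A549 libraries come from 1 cell line, and every aptamer library shares the buffer and the reduced serum with vehicle.

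Aptamers are folded nucleic acids selected for binding to a protein, here the extracellular part of EGFR. EGFR is a receptor tyrosine kinase that drives the RAS, RAF, MEK and ERK cascade. Epithelial cells also hold sensors of foreign RNA. RIG-I and MDA5 (genes RIGI and IFIH1) read RNA in the cytosol and TLR3 reads it in endosomes. They lead through IRF3 and NF-kB to interferon beta and the lambda interferons, and secreted interferon acts through JAK kinases, STAT proteins and IRF9 on interferon-stimulated genes. IRF9-containing complexes bind the interferon-stimulated response element in promoters, and STAT dimers bind the gamma-activated site.

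The genes that rose with MinE07 included lambda interferon entries and interferon-responsive genes, so the promoters of 5 of the genes described below are shown with the matches to those elements. Each runs from 250 bases before to 50 bases after the transcription start, 5′ to 3′ along the gene, from RefSeq on GRCh38.p14. Capitals mark matches on either strand to GAAA followed after any 2 bases by GAAA (the response element, ISRE) or to TTCNNNGAA (the gamma-activated site, GAS), and no GAS match overlaps an ISRE match in the promoters shown.
IFNL1 promoter, chr19:39296157-39296456, plus strand: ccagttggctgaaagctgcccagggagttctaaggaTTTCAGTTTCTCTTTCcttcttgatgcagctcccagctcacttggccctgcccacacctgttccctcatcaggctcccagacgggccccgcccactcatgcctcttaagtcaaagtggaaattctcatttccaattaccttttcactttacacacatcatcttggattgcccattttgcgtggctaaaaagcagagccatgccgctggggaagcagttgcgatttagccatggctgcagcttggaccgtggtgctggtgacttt
DDX60 promoter, chr4:168318703-168319002, minus strand: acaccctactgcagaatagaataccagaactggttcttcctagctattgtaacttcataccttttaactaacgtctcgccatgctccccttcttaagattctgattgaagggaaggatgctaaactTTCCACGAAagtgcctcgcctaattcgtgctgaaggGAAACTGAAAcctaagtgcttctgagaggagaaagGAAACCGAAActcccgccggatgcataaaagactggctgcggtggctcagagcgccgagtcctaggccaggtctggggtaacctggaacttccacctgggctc
CEACAM1 promoter, chr19:42528432-42528731, minus strand: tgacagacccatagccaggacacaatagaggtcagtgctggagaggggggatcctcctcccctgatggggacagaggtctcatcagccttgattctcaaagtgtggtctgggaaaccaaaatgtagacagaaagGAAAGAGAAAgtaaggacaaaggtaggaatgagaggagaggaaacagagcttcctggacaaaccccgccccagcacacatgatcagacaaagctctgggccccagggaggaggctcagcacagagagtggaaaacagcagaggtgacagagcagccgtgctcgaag
ISG15 promoter, chr1:1013247-1013546, plus strand: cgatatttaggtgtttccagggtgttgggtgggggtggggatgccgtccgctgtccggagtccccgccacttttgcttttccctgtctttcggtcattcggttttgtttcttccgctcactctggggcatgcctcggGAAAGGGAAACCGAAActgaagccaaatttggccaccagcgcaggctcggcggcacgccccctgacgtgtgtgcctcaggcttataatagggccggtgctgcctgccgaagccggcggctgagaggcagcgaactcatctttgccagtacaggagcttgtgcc
HES4 promoter, chr1:1000048-1000347, minus strand: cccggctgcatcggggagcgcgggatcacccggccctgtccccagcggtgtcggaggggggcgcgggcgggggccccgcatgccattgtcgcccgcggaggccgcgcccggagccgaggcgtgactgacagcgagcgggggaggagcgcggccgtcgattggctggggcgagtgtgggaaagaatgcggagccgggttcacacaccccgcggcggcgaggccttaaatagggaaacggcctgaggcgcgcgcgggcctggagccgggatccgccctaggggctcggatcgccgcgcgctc
ISRE matches were found at 2 places each in the IFNL1, DDX60 and ISG15 windows, which overlap each other in IFNL1 and ISG15, and at 1 in the CEACAM1 window. DDX60 also held 1 GAS match, and HES4, whose next tested neighbour on the chromosome is ISG15, held neither. Of the 9208 tested genes with a promoter in the table, 3.96% held an ISRE match and 8.62% a GAS match in at least 1 promoter of this length. Called genes that are not reported here were left out of the next counts. Among the 13 reported genes that rose and had a promoter in the table, 4 held an ISRE match (CEACAM1, DDX60, and IFNL1 and IFNL2, which rose as copy entries). Among the 7 that fell and had one, FRMD3 held it. Of the 27 interferon-stimulated genes with a promoter there, 19 held an ISRE match and 9 a GAS match.

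The epithelial keratins KRT8 and KRT18 were abundant, with KRT8 from 2884 to 3199 FPKM and KRT18 from 2163 to 2393 FPKM in the MinE07 and vehicle libraries. KRT19, also among the 5 epithelial identity genes tested, averaged under 5 FPKM. It differed by -0.19 with MinE07 and was not called, and the other 4 were higher. CD3E was listed at 0 in all 9 A549 libraries, the leukocyte markers summed to 1.67 to 1.90 FPKM with MinE07 and 1.68 to 1.96 with vehicle, nearly all of it CD14, and the 3 endothelial markers stayed under 0.1 FPKM. The fibroblast markers summed to 0.287 to 0.403 FPKM with MinE07 and 0.303 to 1.28 with vehicle, the highest in vehicle replicate 2. Relative sequencing depth was 0.853 to 1.11 of the median library with MinE07 and 0.919 to 1.39 with vehicle. Vehicle replicate 1 stood apart from the other A549 libraries in 2 ways. Its genes with the shortest transcripts (up to 2035 bases) lay a median 0.07 log2 above the A549 mean and those with the longest (from 5099 bases) at a median of -0.06, a spread of 0.12 against -0.05 to 0.06 in the other 8 libraries. Its interferon-stimulated genes averaged 5.96 on the log2(FPKM + 0.5) scale, against 5.69 and 5.76 in vehicle replicates 2 and 3. Where a call described below changed without this library, the value without it is given too, and its part in the results beyond those values was not tested.

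MinE07 moved few genes of A549 past the test, and by small amounts. In limma, 46 of the genes tested (0.344%) had a Benjamini-Hochberg adjusted p below 0.05 and are termed called. Of these 25 rose (0.187%) and 21 fell (0.157%), while 1860 genes (13.9%) had an unadjusted p under 0.05. After rescaling of the libraries by medians of ratios, the split was 35 higher and 44 lower. The lambda interferon entries, HES4, ETV7, SLPI, PIK3AP1 and CEACAM1 led the genes that rose, and ITGB4, ALDH3A1 and GPRC5A were among those that fell. Apart from SCARNA26A, the changes of the called genes ranged from 0.22 to 0.86 log2 in size with a median of 0.33, on the log2(FPKM + 0.5) scale used for every change below. Of the 46, 42 had an adjusted p of 0.03 or more.

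The number called depended on single libraries. It was 376 (2.81%) without vehicle replicate 1, of which 317 were higher (2.37%) and 59 lower (0.441%). It was 7, 0 and 4 without MinE07 replicates 1, 2 and 3, 4 and 8 without vehicle replicates 2 and 3, and 14, 4 and 8 without C36 replicates 1, 2 and 3. All of the 46 that could be tested in a setting kept their direction in each of these. SLPI, ALDH3A1 and MYEOV were called in 8 of the 9 fits that left out a library, GPRC5A in 6 and TYMP in 4. Every other called gene was called in 3 or fewer.

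**Figure D1:**
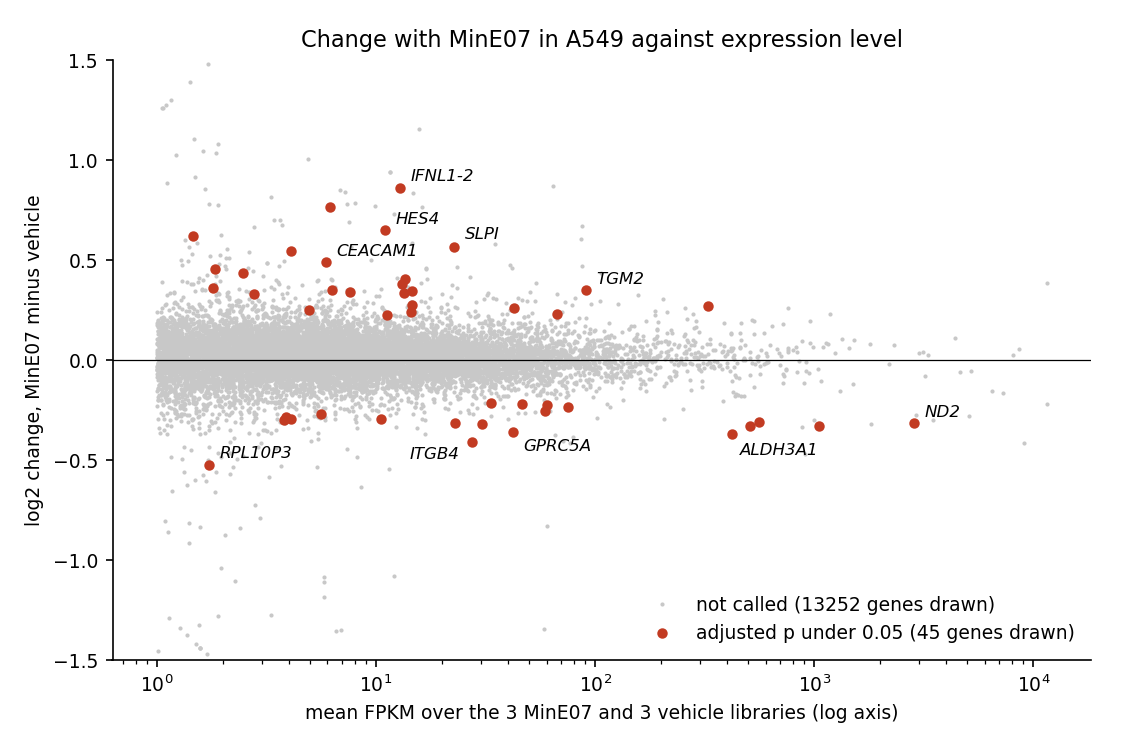
Log2 change between MinE07 and vehicle in A549 (vertical axis) against the mean FPKM over the 6 libraries (horizontal axis, log scale), with each gene as a point and the called genes in red. The called genes lie within 0.86 of 0, and 82 genes beyond 1.5 on the vertical axis or not drawn, SCARNA26A among them, are left out.

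SLPI, a secreted inhibitor of serine proteases made by airway epithelium, was the gene with the most stable increase. It measured 27.2, 27.3 and 26.9 FPKM with MinE07 and 19.9, 17.9 and 16.95 with vehicle. The groups did not overlap, and the change was 0.56 ± 0.06 (SE, n = 3 against 3; adjusted p = 0.0073). C36 libraries lay between them, at 21.96, 23.6 and 23.4 FPKM.

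HES4, a transcriptional repressor of the HES family, measured 11.4, 15.3 and 13.8 FPKM with MinE07 and 7.62, 8.70 and 8.82 with vehicle, a change of 0.65 ± 0.10 (adjusted p = 0.048). ETV7, an ETS transcription factor known as an interferon-responsive gene, measured 1.89, 1.80 and 1.94 FPKM with MinE07 and 1.27, 0.998 and 0.901 with vehicle. Its change was 0.62 ± 0.09 (adjusted p = 0.041). PIK3AP1, an adaptor that links receptors to PI3-kinase, rose by 0.54 ± 0.08, from 3.80, 2.93 and 3.00 to 4.81, 4.97 and 5.02 FPKM. In all 3 genes the lowest MinE07 library lay above the highest vehicle library.

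CEACAM1, a cell adhesion molecule and inhibitory receptor, measured 6.99, 6.38 and 7.68 FPKM with MinE07 and 5.24, 4.74 and 4.57 with vehicle, a change of 0.49 ± 0.08 (adjusted p = 0.049). GBP2, a guanylate-binding protein induced by interferon gamma, rose by 0.45 ± 0.07 (adjusted p = 0.041). NTNG2, a membrane-anchored netrin, rose by 0.43 ± 0.06 (adjusted p = 0.036). Further genes that rose were TYMP, which encodes thymidine phosphorylase, by 0.34 ± 0.04 (adjusted p = 0.035), TGM2, a protein-crosslinking transglutaminase, by 0.35 ± 0.05, and the zinc finger gene ZNF449 by 0.36 ± 0.06. TGM2 was the more abundant of these, at 101, 103 and 101 FPKM with MinE07 against 85.4, 75.7 and 78.6 with vehicle. Smaller increases were those of STAT4 (0.33), the AP-1 subunit JUN (0.28), ceruloplasmin CP (0.26), RPS6KC1 (0.25) and USH1C (0.24).

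**Figure D2:**
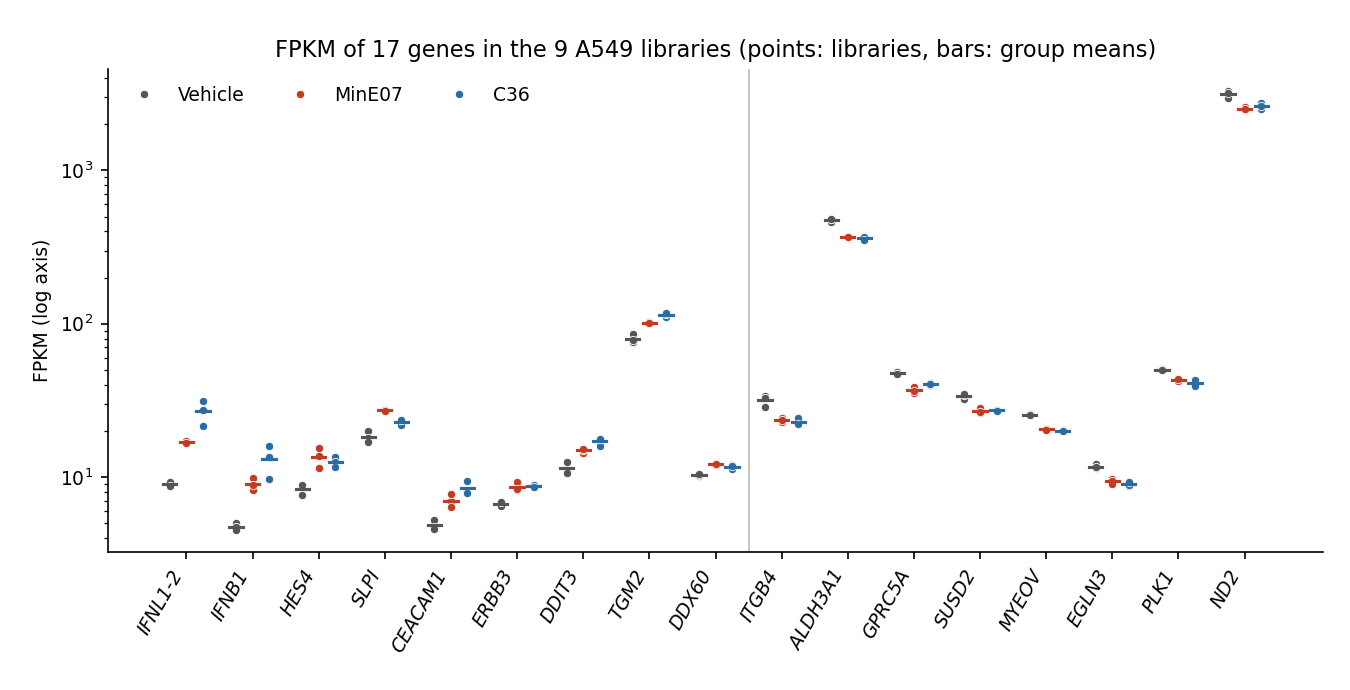
FPKM (log axis) of 17 genes in the A549 libraries labelled vehicle, MinE07 and C36, with points for libraries and bars for the mean of 3. Left of the grey line MinE07 libraries lie above vehicle (SLPI 26.9 to 27.3 against 16.95 to 19.9), right of it below (ALDH3A1 362 to 369 against 459 to 483); IFNB1 is drawn although it missed the threshold.

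Interferon genes were higher with MinE07 by about the amount of the largest called changes, though most missed the threshold. The files hold further copy entries for the lambda genes, and reads could be split between near-identical copies, so their levels are uncertain. The IFNL1-2 entry measured 16.7, 17.1 and 16.7 FPKM with MinE07 and 9.17, 9.23 and 8.69 with vehicle, and rose by 0.86 ± 0.11 (adjusted p = 0.036). The IFNL2-2 entry rose by 0.76 ± 0.12 (adjusted p = 0.049), from 4.64, 4.71 and 3.87 to 9.07, 6.59 and 7.95 FPKM. IFNB1, interferon beta, measured 9.79, 8.25 and 8.86 FPKM with MinE07 and 5.02, 4.71 and 4.50 with vehicle. The groups did not overlap, but the difference of 0.85 ± 0.16 had an adjusted p of 0.073. The same held for IFNL1 (0.84, adjusted p = 0.098), IFNL2 (0.78, adjusted p = 0.11) and IFNL3 (0.69, adjusted p = 0.073), of which IFNL2 and IFNL3 were chosen after their values were seen. The lambda genes were called higher without vehicle replicate 1, IFNL1 at 0.98 (adjusted p = 0.033), IFNL2 at 0.95 (adjusted p = 0.025) and IFNL3 at 0.82 (adjusted p = 0.0096), and IFNB1 was not (adjusted p = 0.076). After the adjustment for transcript length described below, IFNB1 (0.86, adjusted p = 0.049) and IFNL3 (0.71, adjusted p = 0.029) were called higher. IFNL1 (adjusted p = 0.056) and IFNL2 (adjusted p = 0.055) then were not. The C36 libraries held IFNB1 at 9.71, 13.6 and 15.9 FPKM and IFNL1-2 at 21.6, 27.2 and 31.5.

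Of the 15 tested genes of the interferons and their induction, which include the lambda genes, IRFs, STATs, kinases and receptors, 12 were higher, with a median of 0.09. Of the 15, 1 was called higher, against 0.187% of all genes. The receptor genes IFNAR1, IFNAR2 and IL10RB and the kinases JAK1 and TYK2 lay between -0.07 and 0.09, and IRF3 at 0.00. IFNLR1, the lambda receptor subunit, was below the filter at 0.545 to 0.706 FPKM over the 6 libraries.

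All 13 tested nucleic acid sensors and their adaptors were higher, with a median of 0.12 against 0.02 over all genes tested. DDX60 was the 1 called, against 0.187% of all genes called higher. DDX60, a helicase that assists RIG-I, measured 12.2, 11.9 and 12.1 FPKM with MinE07 and 10.1, 10.3 and 10.4 with vehicle, a change of 0.22 ± 0.04 (adjusted p = 0.048). RIGI was 0.24 ± 0.07 higher (adjusted p = 0.20), at 55.1, 53.3 and 59.3 FPKM against 53.4, 43.1 and 46.1, and IFIH1 was 0.23 ± 0.07 higher (adjusted p = 0.17). RIGI overlapped between groups in vehicle replicate 1 alone. Of the toll-like receptors for RNA, TLR3 was present at 4.88 to 6.51 FPKM, while TLR7 and TLR8 stayed under 0.1 FPKM in all 9 libraries. Without vehicle replicate 1, 6 of 12 tested sensors and 5 of the 15 genes of the interferons and their induction were called higher, against 2.37% of all genes, RIGI at 0.32 (adjusted p = 0.018), IFIH1 at 0.31 (adjusted p = 0.017) and TLR3 at 0.32 (adjusted p = 0.0093) among them. With any other single A549 library left out, 0 sensors and 0 or 1 of the 15 were called higher. After the adjustment for transcript length described below, 1 of 13 and 3 of 15 were, against 0.49%.

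Interferon-stimulated genes were nearly all higher with MinE07 and none was called. Of 34 tested, 33 were higher, with a median of 0.21, and 21 had MinE07 libraries all above vehicle, against 11.3% of all genes tested. With the control aptamer C36 the median of the 34 against the same vehicle libraries was 0.28. IFIT1, an RNA-binding antiviral protein, measured 298, 298 and 311 FPKM with MinE07 and 298, 233 and 246 with vehicle. ISG15, a ubiquitin-like modifier, measured 1017, 1073 and 964 FPKM against 990, 814 and 871. In both, vehicle replicate 1 reached into the range of the MinE07 libraries, and their differences of 0.23 (adjusted p = 0.23) and 0.19 (adjusted p = 0.31) missed the threshold. Without vehicle replicate 1, 24 of the 34 were called higher, against 2.37% of all genes tested, and IFIT1 then stood 0.34 higher (adjusted p = 0.0076). That library was set apart above partly by its level of these same genes, so the count is no independent support for a rise. Without any other single A549 library 0 of the 34 were called. After adjustment of every library for its dependence on transcript length, chosen after seeing the data, 4 of 34 were called higher, against 0.49% of all genes; 0.987% of all genes were called in either direction. IFIT2 and RSAD2, picked here for their size of change, measured 105, 101 and 106 against 81.9, 59.8 and 65.1 FPKM and 19.8, 18.9 and 20.1 against 16.7, 12.7 and 13.2 FPKM. In both genes every MinE07 library lay above every vehicle library, with differences of 0.60 and 0.46 (both adjusted p = 0.073). Both were called without vehicle replicate 1, at 0.73 (adjusted p = 0.0074) and 0.58 (adjusted p = 0.0029).

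**Figure D3:**
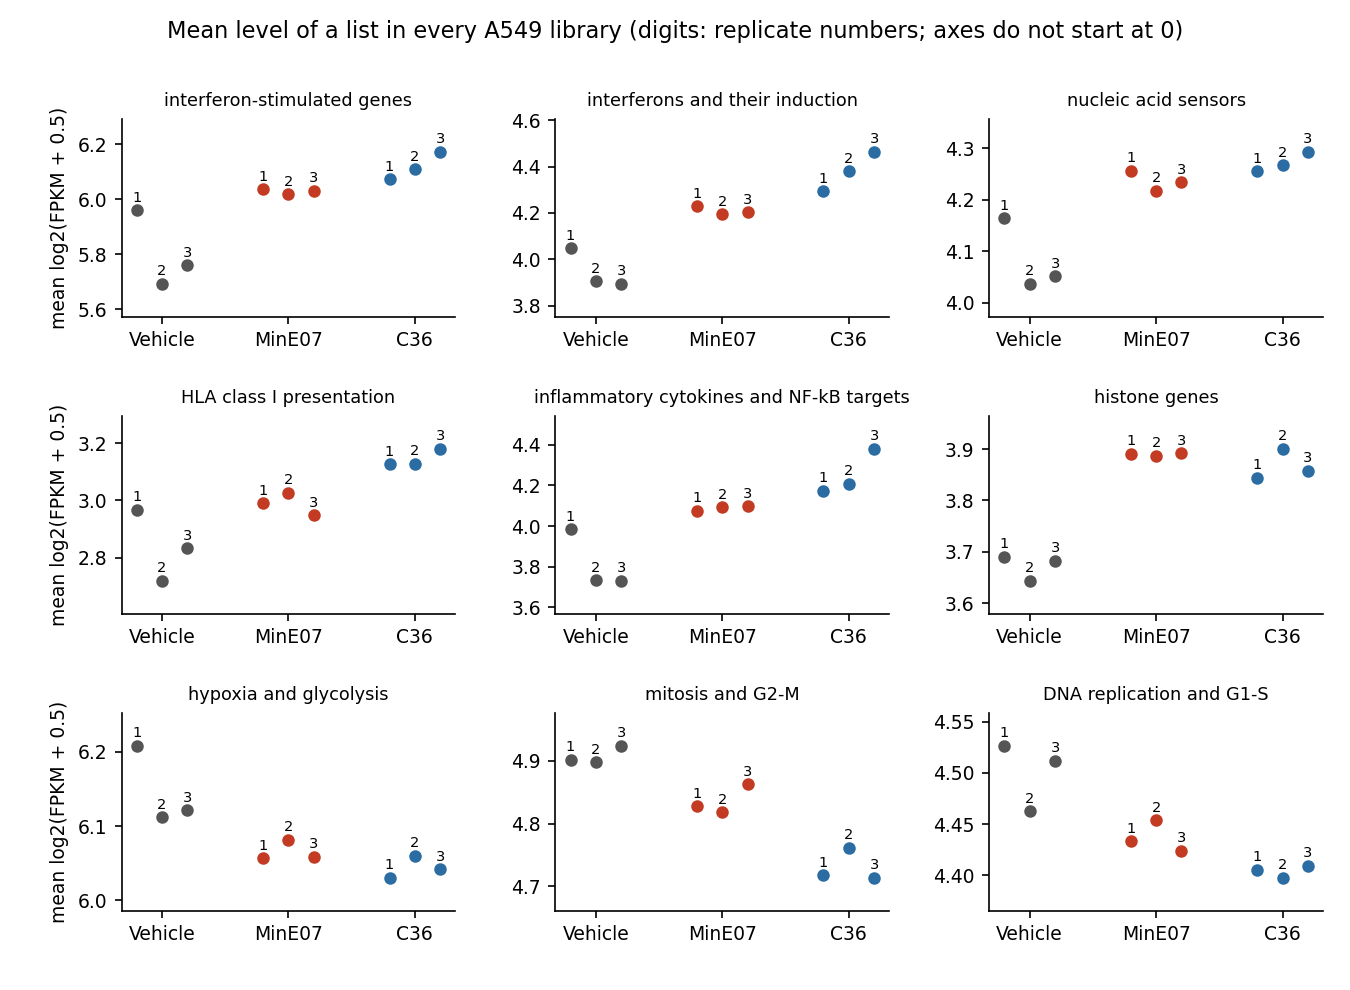
Mean log2(FPKM + 0.5) over the tested genes of 9 lists (vertical axes, which do not start at 0) in every A549 library of the 3 groups, with the replicate number above each point. Vehicle replicate 1 has 5.96 for interferon-stimulated genes, nearer to the MinE07 libraries (6.02 to 6.04) than to the other vehicle libraries (5.69 and 5.76), and the histone means of MinE07 (3.89 in each) and vehicle (3.64 to 3.69) are apart.

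Of 15 tested genes of HLA class I presentation 14 were higher, with a median of 0.19, and 1 was called higher, against 0.187% of all genes. MinE07 libraries lay all above vehicle for 3 of the 15, against 11.3% of all genes. The called gene was NLRC5, a transactivator of class I genes, at 7.71, 6.47 and 7.27 FPKM with MinE07 and 5.35, 5.55 and 5.55 with vehicle, a change of 0.35 ± 0.06 (adjusted p = 0.049). HLA-B, present at only 1.45 to 4.17 FPKM, was 0.54 lower with an adjusted p of 0.45 and overlapping libraries. HLA-B has further copy entries in the files. Without vehicle replicate 1, 9 of the 15 were called higher, against 2.37% of all genes, and without any other single A549 library 0 were. After length adjustment 1 was, against 0.49% of all genes.

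Inflammatory cytokines and NF-kB targets were higher for 16 of 17 tested, with a median of 0.24 and none called. CXCL8, a neutrophil-attracting chemokine, measured 45.1, 45.6 and 52.0 FPKM with MinE07 and 39.0, 32.1 and 31.2 with vehicle, and its difference of 0.48 ± 0.09 had an adjusted p of 0.062. NFKBIA, the NF-kB inhibitor that NF-kB itself induces, was 0.16 higher (adjusted p = 0.38), and 0.25 higher without vehicle replicate 1 (adjusted p = 0.033). The interferon-induced chemokine CXCL10, picked here for its size of change, measured 8.82, 9.17 and 9.76 FPKM with MinE07 and 7.62, 4.05 and 3.85 with vehicle, with a difference of 0.84 (adjusted p = 0.23). The higher vehicle value was again that of replicate 1. Without that library 10 of the 17 were called higher, against 2.37% of all genes, CXCL10 at 1.13 (adjusted p = 0.015) and CXCL8 at 0.58 (adjusted p = 0.0063). After length adjustment 2 of the 17 were, against 0.49% of all genes. With a single A549 library other than vehicle replicate 1 left out, 0 or 1 of the 17 were called. TNF was listed at 0 in all 9 A549 libraries, and IL6, IL1A and IL1B were below the filter.

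EGFR itself was not called. It measured 19.1, 17.2 and 19.1 FPKM with MinE07 and 19.4, 20.3 and 19.9 with vehicle, a difference of -0.10 with a 95% interval from -0.21 to 0.00 (adjusted p = 0.38). ERBB2 differed by -0.05, with an interval from -0.15 to 0.06. ERBB3, the kinase-impaired partner of EGFR and ERBB2 that binds neuregulin, rose by 0.34 ± 0.05 (adjusted p = 0.041), at 9.23, 8.23 and 8.29 FPKM against 6.59, 6.50 and 6.89. It was the 1 called of the 9 tested ERBB receptors, ligands and regulators, against 0.187% of all genes called higher. Those 9 had a median of 0.04, and the ligands AREG and EREG differed by 0.07 and 0.04.

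Genes that report on EGFR and MAPK signalling showed no common shift. Of 19 tested, 12 were higher and 7 lower, with a median of 0.02 and none called. The fit without vehicle replicate 1 called EGR1 and DUSP5 higher and PHLDA1 lower, against 2.37% and 0.441% of all genes. DUSP6, the phosphatase of ERK, measured 3.79, 3.80 and 4.07 FPKM with MinE07 and 3.82, 3.87 and 3.79 with vehicle, a difference of 0.02 with a 95% interval from -0.08 to 0.11. SPRY4, a feedback inhibitor of receptor signalling, differed by 0.10 (interval -0.02 to 0.22). EGR1, an immediate early gene picked here for its size of change, measured 4.68, 4.17 and 3.94 FPKM with MinE07 and 3.21, 2.81 and 2.78 with vehicle, with a difference of 0.47 (adjusted p = 0.051). Its libraries did not overlap, and it was called without vehicle replicate 1 (0.53, adjusted p = 0.018) and after length adjustment (0.46, adjusted p = 0.029).

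**Figure D4:**
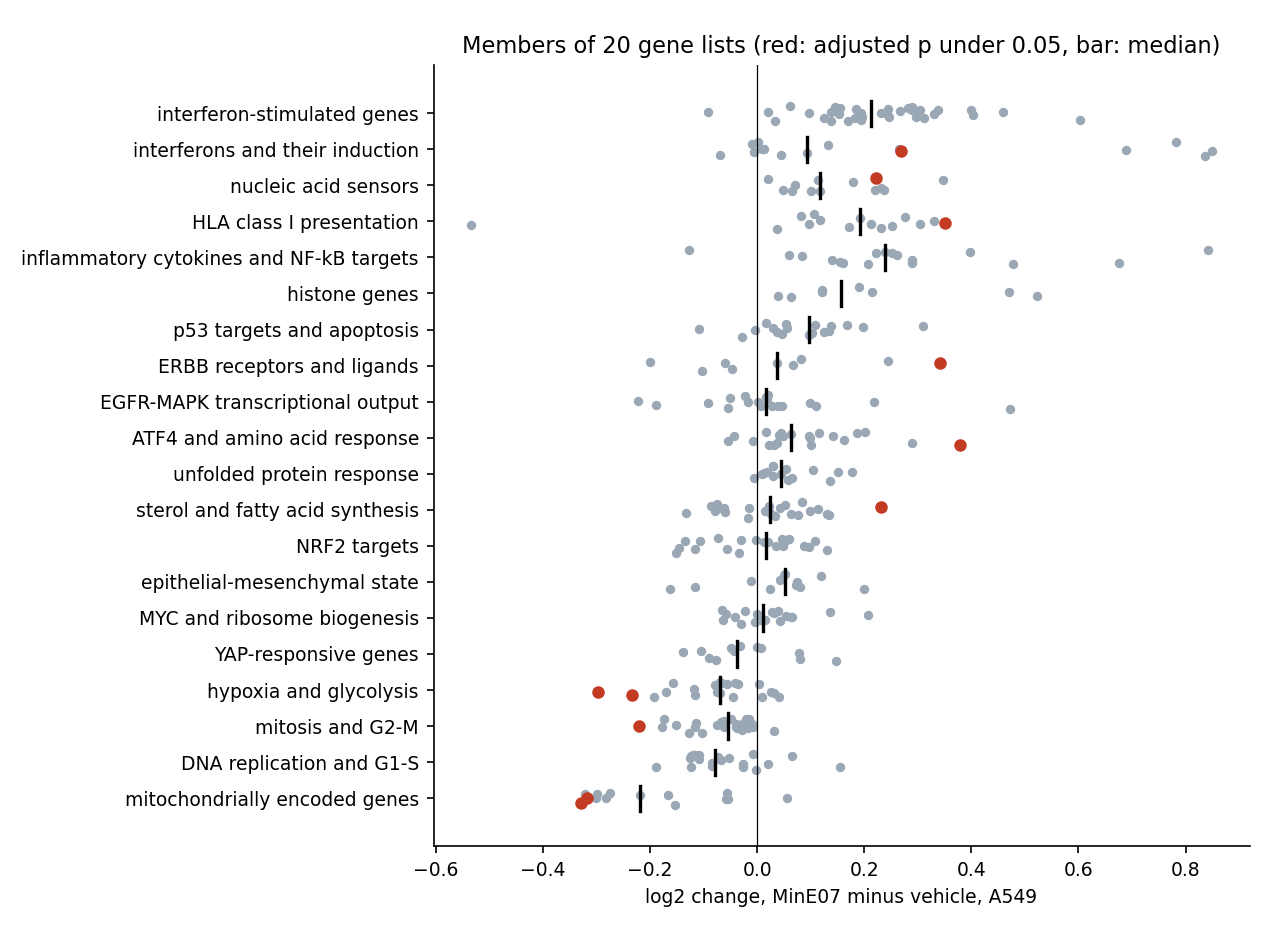
Log2 change between MinE07 and vehicle in A549 (horizontal axis) for each tested gene of 20 lists, with called genes in red and a black bar at the median of the list; COX1 is not drawn. Interferon-stimulated genes (median 0.21), inflammatory genes (0.24) and HLA class I genes (0.19) lie mostly right of 0, and mitochondrially encoded genes (median -0.22) mostly left.

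Among the genes that fell, ALDH3A1 and MYEOV separated the groups by far more than their spread. ALDH3A1, an aldehyde dehydrogenase highly expressed in A549, measured 362, 369 and 368 FPKM with MinE07 and 459, 483 and 481 with vehicle, a change of -0.37 ± 0.04 (adjusted p = 0.0073). MYEOV, a gene overexpressed in a subset of myelomas, measured 20.5, 20.4 and 20.3 FPKM with MinE07 and 25.6, 25.3 and 25.5 with vehicle, a change of -0.31 ± 0.03 (adjusted p = 0.0073). GPRC5A, a retinoic acid-induced receptor of lung epithelium, measured 38.6, 35.4 and 36.4 FPKM against 48.4, 46.9 and 46.8, a change of -0.36 ± 0.04 (adjusted p = 0.014). The C36 libraries held ALDH3A1 at 361, 366 and 352 FPKM and MYEOV at 19.9 to 20.3.

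ITGB4, the integrin beta 4 subunit of hemidesmosomes, measured 24.3, 22.97 and 23.4 FPKM with MinE07 and 28.4, 33.7 and 32.5 with vehicle, a change of -0.41 ± 0.06 (adjusted p = 0.041). The membrane protein gene SUSD2 fell by 0.32 (adjusted p = 0.035), from 32.2, 34.03 and 34.8 to 27.99, 26.1 and 26.5 FPKM. RHPN2, a rhophilin, fell by 0.22 and FRMD3, a FERM domain gene, by 0.27. The 3 called entries of the long noncoding RNA LCIIAR, at 3.11 to 4.62 FPKM, are copies that may share reads, and their changes were -0.30, -0.29 and -0.29. RPL10P3, a ribosomal protein pseudogene, fell by 0.52 at 1.18 to 2.26 FPKM. SCARNA26A, a small Cajal body RNA, was listed at 0 in all MinE07 and C36 libraries and at 3.03, 2.86 and 1.00 FPKM in vehicle. How the poly-A selection of the libraries captured this RNA was not tested.

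Hypoxia-responsive and glycolytic genes were lower for 16 of 21 tested, with a median of -0.07, and 2 were called lower, against 0.157% of all genes. EGLN3, the oxygen-sensing prolyl hydroxylase that hypoxia itself induces, measured 9.72, 9.47 and 9.03 FPKM with MinE07 and 12.1, 11.4 and 11.5 with vehicle, a change of -0.30 ± 0.04 (adjusted p = 0.041). PFKFB3, which makes the activator of phosphofructokinase, fell by 0.23 (adjusted p = 0.049), from 79.3, 81.8 and 83.1 to 71.6, 68.1 and 67.7 FPKM. Outside the list, the glucose transporter SLC2A3 fell by 0.23 (adjusted p = 0.041), and GPI-2, a copy entry of glucose-6-phosphate isomerase, by 0.25 (adjusted p = 0.049). SLC2A1, the main glucose transporter of many cancer lines, measured 22.95, 22.7 and 21.96 FPKM against 26.9, 25.3 and 25.2, and its difference of -0.19 missed the threshold (adjusted p = 0.075). It was called lower without vehicle replicate 1 (-0.16, adjusted p = 0.047), when 3 of the list were, against 0.441% of all genes. It was also called lower after length adjustment (-0.21, adjusted p = 0.028), when LDHA and PKM also were and the list held 5, against 0.498% of all genes. After rescaling by medians of ratios 4 of the list were called lower, against 44 of the 13379 genes tested. CA9, a membrane carbonic anhydrase induced by hypoxia, differed by -0.04 (interval -0.13 to 0.04).

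Transcripts of the mitochondrial genome were lower for 13 of 15 tested, with a median of -0.22, and 2 were called lower, against 0.157% of all genes. ND2, a complex I subunit, measured 2612, 2478 and 2514 FPKM with MinE07 and 3303, 2978 and 3200 with vehicle, a change of -0.32 ± 0.05 (adjusted p = 0.048). ND6, the complex I subunit encoded on the other strand, fell by 0.33 (adjusted p = 0.049). ND1 differed by -0.28 (adjusted p = 0.12). The nuclear pseudogenes MTND2P28 and MTATP6P1, close copies of mitochondrial genes with which they may share reads, fell by 0.33 and 0.31. Without vehicle replicate 1, 6 of the 15 transcripts were called lower, against 0.441% of all genes, and without any other single MinE07 or vehicle library 0 were. With every library kept, 6 were called lower after rescaling by medians of ratios, against 44 of the 13379 genes tested. A filter at a mean FPKM of 5 also gave 6, against 28 of 7720 genes. With the replicate number as a block, or from the 6 compared libraries alone, 0 were called lower. COX1 was listed at 0 in vehicle replicates 1 and 3 and at 10347 FPKM in vehicle replicate 2, beside 8722 to 9655 with MinE07, so no change is given for it.

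Cell cycle genes were mostly lower, by small amounts. Of 24 mitosis and G2-M genes, 23 were lower, with a median of -0.05, and 1 was called lower, against 0.157% of all genes. The called gene was PLK1, a mitotic kinase, at 43.0, 42.0 and 43.4 FPKM with MinE07 and 50.6, 49.5 and 49.8 with vehicle (change -0.22 ± 0.04, adjusted p = 0.049). MKI67, a marker of cycling cells, measured 36.7, 31.9 and 34.2 FPKM against 25.7, 41.4 and 40.7, so that vehicle replicate 1 lay below and the other vehicle libraries above every MinE07 library. MKI67 was called lower without vehicle replicate 1, at -0.26 (adjusted p = 0.038), and PLK1 was the other called gene of the list, against 0.441% of all genes. After length adjustment MKI67 stood at -0.07 (adjusted p = 0.84). PLK1, CDC20 and BIRC5 were then called lower, against 0.498% of all genes, the last 2 named after their values were seen. Rescaling by medians of ratios called 2 of the list lower, against 44 of the 13379 genes tested. CDK1 differed by -0.03 (interval -0.17 to 0.11). Of 22 DNA replication and G1-S genes, 19 were lower, with a median of -0.08 and none called. MinE07 libraries all below vehicle were found for 9 of the 24 and 10 of the 22, against 7.08% of all genes tested. RRM2, a subunit of ribonucleotide reductase, differed by -0.12 (adjusted p = 0.21) and MCM2, a helicase subunit, by -0.05 (adjusted p = 0.58).

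The remaining stress and growth lists held 2 called genes. DDIT3, the transcription factor CHOP of the integrated stress response, rose by 0.38 ± 0.06 (adjusted p = 0.049), from between 10.6 and 12.5 FPKM in the vehicle libraries to between 14.4 and 15.2 with MinE07. It was the 1 called of 21 ATF4 and amino acid response genes, against 0.187% of all genes called higher. Of the 21, 18 were higher, with a median of 0.06. Without vehicle replicate 1, 3 of the 21 were called higher, against 2.37% of all genes. ASNS, an ATF4 target, differed by 0.02 (interval -0.10 to 0.14). HMGCS1, an early enzyme of cholesterol synthesis, rose by 0.23 ± 0.04 (adjusted p = 0.048), at 73.2, 70.9 and 72.9 FPKM against 63.5, 59.0 and 62.3. It was the 1 called of 24 sterol and fatty acid synthesis genes, against 0.187% of all genes called higher. Without vehicle replicate 1, 2 of the 24 were called higher, against 2.37% of all genes.

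None of the other lists held a called gene with all libraries. Over all genes tested 58.2% were higher, with a median of 0.02. Of 8 tested histone genes all were higher, with a median of 0.16. The libraries were poly-A selected, and how much of each histone transcript that step captured was not tested. H1-2 was 0.21 higher (adjusted p = 0.22; 0.30 without vehicle replicate 1, adjusted p = 0.015) and H2AC6 0.12 higher (adjusted p = 0.50). Of 19 p53 and apoptosis genes 16 were higher, with a median of 0.10, CDKN1A at 0.10 (adjusted p = 0.32) and MDM2 at 0.04 (adjusted p = 0.71). Of 15 unfolded protein response genes 14 were higher, with a median of 0.04. In that list XBP1 differed by 0.18 (adjusted p = 0.16; 0.23 without vehicle replicate 1, adjusted p = 0.015) and HSPA5 by 0.07 (adjusted p = 0.50). Over the 22 NRF2 targets, which KEAP1-mutant A549 cells express at a high level, the median was 0.02, with NQO1 at 546, 559 and 551 FPKM against 564, 534 and 543. The medians of the YAP, MYC and epithelial-mesenchymal lists were -0.04, 0.01 and 0.05. Each of 5 lists held 1 gene called higher without vehicle replicate 1, against 2.37% of all genes: H1-2 and XBP1 above, PMAIP1 of the p53 list, AKR1C2 of the NRF2 list and NOP58 of the MYC list, the last 3 named after their values were seen.

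C36 was compared with the same vehicle libraries, so its values below are not independent of those of MinE07. For IFNL1 the change against vehicle was 1.39 with C36 and 0.84 with MinE07, and for IFNB1 1.34 and 0.85. For CEACAM1 it was 0.74 with C36 and 0.49 with MinE07, for SLPI 0.33 and 0.56, for ALDH3A1 -0.40 and -0.37, for MYEOV -0.34 and -0.31, and for ITGB4 -0.45 and -0.41. RPL10P3 stood at -0.01 with C36 and -0.52 with MinE07. All 46 genes called with MinE07 had the same sign against vehicle with C36. Medians against vehicle were 0.28 with C36 and 0.21 with MinE07 for the interferon-stimulated genes. They were 0.37 and 0.24 for the inflammatory genes, 0.28 and 0.19 for HLA class I and -0.17 and -0.05 for mitosis. For the mitochondrially encoded genes they were -0.19 and -0.22, and for the NRF2 targets -0.06 and 0.02. The direct difference between MinE07 and C36 had an adjusted p of 0.16 or more for each of the 46 genes called against vehicle. Its 95% interval was -0.06 to 0.11 for ALDH3A1, -0.89 to -0.39 for IFNL1-2 and 0.11 to 0.36 for SLPI, before any adjustment for the number of genes.

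The change in A549 was then set against the mean change with MinE07 in H3255, H1975 and H820, in a fit of all 36 libraries. The difference was called for 1633 genes (12.2%), 1021 of them higher in A549 (7.63%) and 612 lower (4.57%). Of the 46 genes called in A549, 36 were called in that difference as well, though the A549 libraries enter both. The lambda interferons and IFNB1 averaged at most 0.0297 FPKM in the other lines under either treatment, so the difference of 0.86 for IFNL1 (adjusted p = 7.5e-06) rests on A549 alone. That p uses a spread pooled with the libraries of those lines, where IFNL1 was near 0. The A549 change itself had an SE of 0.17 in the A549 fit (adjusted p = 0.098) and 0.10 in the 36-library fit (adjusted p = 3.3e-06). SUSD2 fell in A549 and rose by 0.43 in H3255 and 0.55 in H1975, a difference of -0.69 (adjusted p = 1.2e-06). MYEOV fell in A549 by 0.31 and in H3255 and H1975 by 0.62 each. In H820 it was near 0 FPKM (0.0024 with MinE07 and 0.0072 with vehicle), with a change of -0.01. Its difference of 0.10, taken from a mean that includes H820, was not called (adjusted p = 0.22).

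Genes of EGFR signalling differed between the lines mostly through the others. For 13 of the 19 EGFR and MAPK output genes the difference was called higher in A549 and for none lower, with medians of -0.52 in H3255, -0.21 in H1975 and -0.09 in H820 beside 0.02 in A549. DUSP6 stood at -0.57, -0.27 and -0.07 in H3255, H1975 and H820 against 0.02 in A549, a difference of 0.32 (adjusted p = 1.2e-04). In H820 it averaged only 0.069 FPKM with MinE07 and 0.098 with vehicle, so its value there could show little change. CXCL8 differed by 1.33 (adjusted p = 9.3e-09), with -1.97 in H3255, and averaged at most 0.60 FPKM in H1975 and 0.90 in H820. The difference was also called higher in A549 for 16 of 21 hypoxia and glycolysis genes, 16 of 24 mitosis and G2-M genes, 11 of 24 sterol genes and 14 of 34 interferon-stimulated genes, against 7.63% of all genes. EGLN3 fell in all 4 lines, by 1.07 in H3255 and 0.30 in A549.

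**Figure D5:**
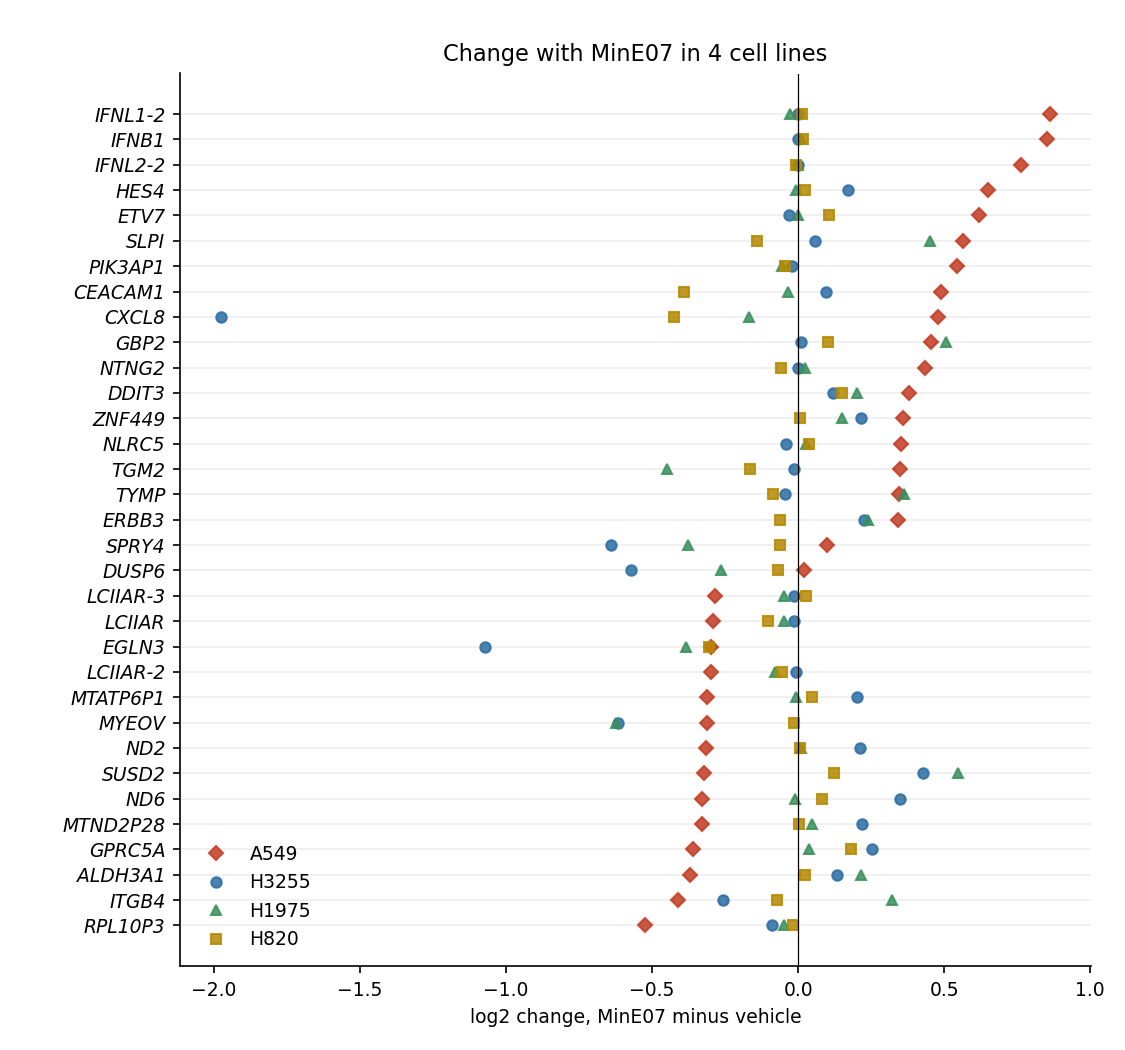
Log2 change between MinE07 and vehicle (horizontal axis) in A549, H3255, H1975 and H820 for 33 genes, called genes with the largest changes, ERBB3 and 4 genes that were not called in A549 (IFNB1, CXCL8, DUSP6 and SPRY4). The interferon entries are near 0 outside A549, CXCL8 is at -1.97 in H3255, and SUSD2 lies left of 0 in A549 and right of it in the other lines.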

How the data were processed

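Expression was measured by poly-A selected, stranded paired-end RNA sequencing, per the labels' protocols. The authors deposited 1 table of FPKM values per library, normalized by depth and transcript length. The submitters' processing notes name HISAT2, Cuffdiff, GRCh38.p12 and hg38, and their versions are not stated there. Read counts were not used, so no counting interval is given; relative depth was read from the steps between low FPKM values.

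Genes whose FPKM averaged 1 or more across the 6 compared libraries were tested on log2(FPKM + 0.5), which understates changes of low genes, with limma 3.58.1 in R 4.3.3 (group means over the 9 A549 libraries, trended and robust moderation, Benjamini-Hochberg adjustment, threshold 0.05). The line difference used all 36 libraries in 12 groups. Entries with no name or a repeated name were left out, and further copy entries of a gene were kept under the files' own suffix. Steps were tested on simulated data. As more than 40 genes were called, those named are the 15 with the largest change in each direction, EGFR, ERBB2 and ERBB3, and the first 2 tested members of each list. A further 14 (other called genes, IFNL2 and IFNL3 among them), and list members described as picked, were named after their values were seen. Alternatives covered pseudocount, filter, scaling, moderation, libraries in the fit, copies, a replicate block and each library left out. Members and gene lists were chosen with earlier results of these data known. Transcript lengths are the longest GENCODE 29 transcript per symbol. Promoter sequences come from RefSeq. Some named items are not reported here.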

Additional observations from a re-analysis of the deposited data

Results flagged for a closer look

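For 53 of the named genes the change with MinE07 in A549 differed from the mean change in H3255, H1975 and H820, by the test of that difference in the 36-library limma fit at an adjusted p under 0.05. For each gene the value is the log2 change in A549 minus the mean log2 change in the other 3 lines. The difference was highest for CXCL8 (1.33), IFNL1-2 (0.87), IFNL1 (0.86), IFNB1 (0.84), IFNL2 (0.79), IFNL2-2 (0.77), IFNL3 (0.69), CEACAM1 (0.60), ETV7 (0.59) and HES4 (0.59). It was also above 0 for PIK3AP1 (0.58), TGM2 (0.56), SPRY4 (0.46), NTNG2 (0.44), SLPI (0.44), JUN (0.42), STAT4 (0.41), HMGCS1 (0.35) and NLRC5 (0.34). Smaller positive differences were those of IFIT1 (0.33), CDKN1A (0.32), DUSP6 (0.32), RIGI (0.32), SLC2A3 (0.30), EGLN3 (0.29) and USH1C (0.25). The least positive were those of GBP2 (0.25), ZNF449 (0.24), DDIT3 (0.22), CA9 (0.22), RPS6KC1 (0.22), CDK1 (0.22), ERBB3 (0.21), NPM1 (0.19), RRM2 (0.18) and NCL (0.15). Among differences below 0 were SUSD2 (-0.69), HLA-B (-0.65), GPRC5A (-0.52), ALDH3A1 (-0.49), ND6 (-0.47), MTND2P28 (-0.42), ND1 (-0.42), ITGB4 (-0.41), ND2 (-0.39) and MTATP6P1 (-0.39). Further negative differences were those of FRMD3 (-0.28), ASNS (-0.28), LCIIAR-3 (-0.27), LCIIAR-2 (-0.25), LCIIAR (-0.24), ERBB2 (-0.21) and VIM (-0.21). 

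A positive difference does not mean that the gene rose in A549, since a fall in the other lines gives one too, as for DUSP6 and EGLN3. For 10 of the 53 the mean was under 1 FPKM with MinE07 and with vehicle in all 3 other lines, so the difference restates the A549 change: IFNB1, the 5 lambda interferon entries, PIK3AP1, NTNG2, USH1C and ALDH3A1. For 19 more this held in 1 or 2 of the lines, as for FRMD3 and the LCIIAR entries in H3255 and H1975. Genes were chosen for naming partly by their change in the same A549 libraries, so these differences are a description of them.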

How the results depend on the processing

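The number of genes called in A549 (46) depended on the model. It was 4 with no filter on low values, 79 after rescaling by medians of ratios, 6 without trended and robust moderation and 4 from the 6 compared libraries alone. It was 764 from all 36, a fit that pools a gene's spread over all lines, also those where the gene is near 0. With 2 settings chosen after seeing the data, it was 29 with the filter over the 9 A549 libraries and 127 after adjustment for transcript length. Leaving out 1 library gave 0 to 376, the highest without vehicle replicate 1 and the lowest without MinE07 replicate 2, where 1766 genes had an unadjusted p under 0.05. With the replicate number as a block limma called 0 genes, with 1627 at an unadjusted p under 0.05. Same-numbered MinE07 and vehicle libraries had residual correlations of -0.01, -0.05 and -0.01, so the numbers were not taken to pair the samples. The other counts stayed within 1.5 times of 46, and the called genes that could be tested kept their direction in every setting. The count of differences between lines (1633) ranged from 1124 to 2134, within 1.5 times in each setting. The cause of these movements was not tested.

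Some named genes that were not called changed sign. After rescaling NQO1 stood at -0.00063 and NCL at -0.0061, and after length adjustment DUSP6 stood at -0.0025 and NCL at -0.013. With 1 library left out, the ranges were NCL from -0.024 to 0.049, MKI67 from -0.26 to 0.078, ASNS from -0.016 to 0.074, DUSP6 from -0.011 to 0.035, NPM1 from -0.047 to 0.054, CDK1 from -0.086 to 0.0301, VIM from -0.031 to 0.0066 and NQO1 from -0.0044 to 0.036. The lowest value of MKI67, without vehicle replicate 1, was called. FPKM tables carry no read counts, and with 3 libraries a group small changes are not resolved. Mitochondrially encoded genes had no transcript length and could not be adjusted for it.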
